A study of Mus musculus with 6 samples.

Results

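The 9 genes described here encode proneural and neuroendocrine transcription factors: Insm1, Neurod1, Neurog1, Neurog2, Neurog3, Myt1, Myt1l, Pax6 and Npas4. They were taken as a fixed list of symbols out of the 17759 genes named on the array. A probe was assigned by the gene symbol in the authors' deposited table, and by the array's own target name where that symbol was empty. This gave 13 probes out of 25697. Insm1 was the 1 gene found by its target name, and Neurog2 and Npas4 have 2 probes each, Myt1l has 3, and the other genes have 1.

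Proneural factors are basic helix-loop-helix (bHLH) proteins that pair with E proteins, bind E boxes and start neuronal differentiation in dividing progenitors. Neurogenins act upstream of NEUROD1, and NEUROG3 is best known for starting the endocrine programme of the pancreas. INSM1 is a zinc-finger repressor of neuroendocrine cells and newborn neurons. REST (RE1-silencing transcription factor) is a zinc-finger repressor that keeps neuronal genes silent outside neurons by binding RE1 elements.

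Total RNA was hybridised to an Illumina MouseRef-8 v2 bead chip, 1 array per sample, from 3 samples labelled REST KO and 3 labelled control. All were mouse embryonic stem (ES) cells of the Hprt-deficient line E14Tg2a, REST KO with the source name FloResCre and control with the source name FloRes. The comparison asks how expression in ES cells lacking REST differs from that in controls. The authors' deposited table calls its comparison group Rest flox. The labels do not say how many clones each genotype stands for, nor whether replicates were separate cultures, so the spread behind every p-value may be technical. REST KO and control arrays occupied separate positions of 1 chip, so position and genotype cannot be told apart. Only the source name of the REST KO samples includes Cre, and an effect of Cre cannot be told apart from that of genotype.

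A probe counted as detected on an array when its detection p was under 0.05, which held for 42.5% to 44.9% of probes per array. All 8 ES cell markers examined were detected on every array, with a summed normalized level of 22037 to 33503 in REST KO cells and 26825 to 53638 in control cells. The lowest control value was that of control replicate 2, which lay among the REST KO arrays, and the other controls were at 52367 and 53638. Of 7 fibroblast feeder markers only Thy1 was detected, with sums of 296 to 303 in REST KO cells and 282 to 298 in control cells, and Col1a1, Col1a2, Col3a1, Dcn, Lum and Postn were detected on no array. Of 7 neuron markers 3 were detected (Stmn2, Map2 and Elavl3), with sums of 2319 to 2588 in REST KO cells and 1586 to 2939 in control cells, while Tubb3, Dcx, Snap25 and Nefl were detected nowhere. Of 7 neural progenitor markers Nes was detected on 3 of 3 REST KO arrays and no control array and Zic1 on 1 REST KO array, with sums of 294 to 335 in REST KO cells and 241 to 268 in control cells. Sox1, Sox3, Hes5, Fabp7 and Msi1 were not detected. Of 6 endoderm markers Gata6 was detected on every array and Sox7 on the control arrays alone, with sums of 278 to 297 in REST KO cells and 318 to 389 in control cells. The part of these differences in the results below was not tested, and in such bulk samples fewer cells of a type and less RNA per cell cannot be told apart.

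Most of the 9 factors gave no signal above background in either genotype. Insm1 was detected on all 6 arrays, Neurog3 on 3 of 3 REST KO arrays and 2 of 3 control arrays, and Myt1 on 1 REST KO array. Neurod1, Neurog1, Neurog2, Myt1l, Pax6 and Npas4, with 10 probes in all, were detected on no array. On the whole array 51% of probes were detected on none of the 6 arrays, and 38.6% on all of them. The 11 probes outside the test had raw intensities of 74.8 to 145.5, and on each array the dimmest detected probe stood between 136.6 and 148.7.

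**Figure D1:**
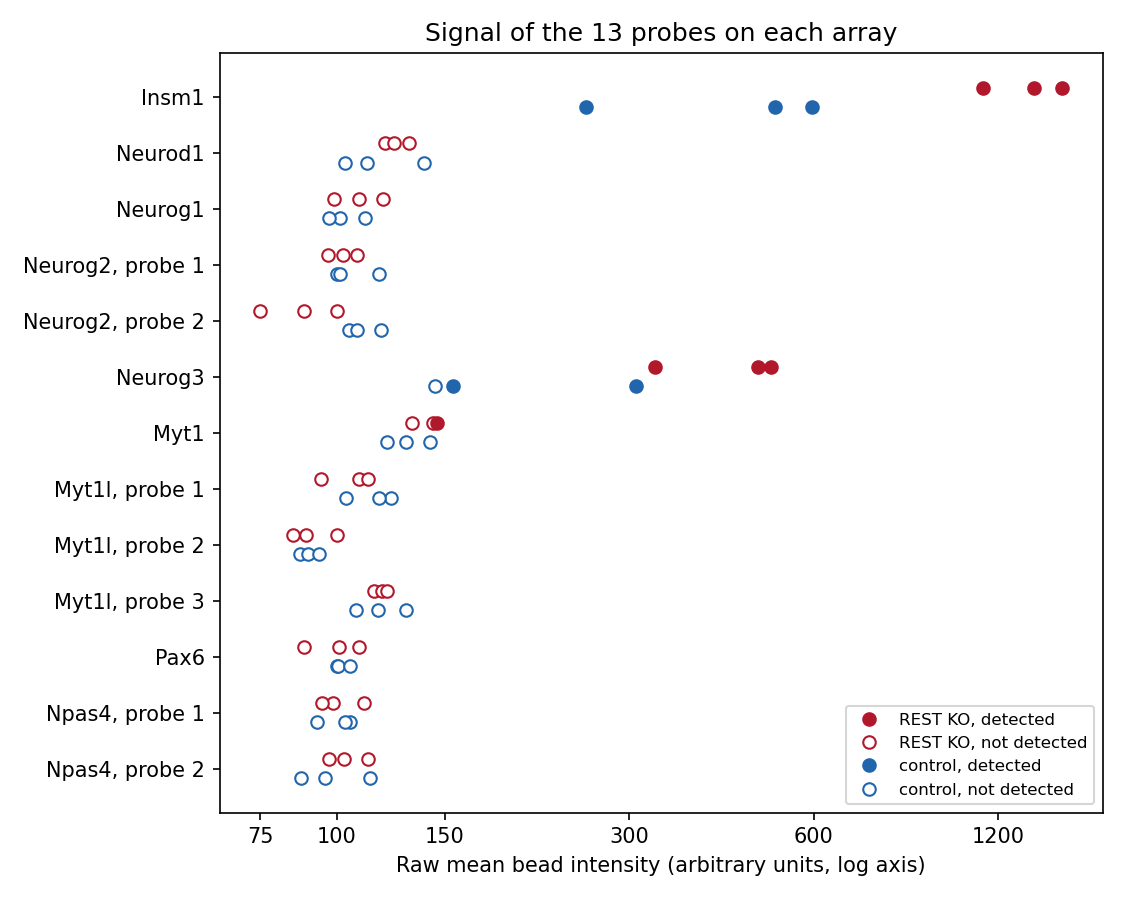
Raw mean bead intensity (log axis) of the 13 probes, with REST KO arrays in red above control arrays in blue and filled points where the probe was detected. Insm1 and Neurog3 carry filled points in both genotypes, Myt1 has a single filled REST KO point, and the other 10 probes have none.

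A probe was tested when at least 3 of the 6 arrays detected it, which kept 11388 probes, and among the 13 only those of Insm1 and Neurog3. In limma's fit across the tested probes neither passed an adjusted p of 0.05, a threshold that 1.27% of tested probes passed (1.05% higher in REST KO cells and 0.22% lower). Both averaged higher in REST KO cells, each with an unadjusted p under 0.05, as had 19.9% of tested probes (9.86% higher in REST KO cells).

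Insm1 gave raw intensities of 1373, 1526 and 1132 in REST KO replicates 1 to 3, against 254.9, 595.6 and 517.8 in control replicates 1 to 3. The groups did not overlap in these raw values, a separation whose share over all probes was not computed. Control replicate 1 was the lowest of the controls. Each value averaged 29 to 45 beads, and the standard error over beads was 44.7 to 99.3 in REST KO arrays and 13.8 to 35.6 in control arrays. The spread among controls was therefore larger than the bead error, which covers a single array only. Between the closest arrays, REST KO replicate 3 and control replicate 2, the raw difference of 536.4 stood against a bead error of 57.1.

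After background correction and quantile normalization Insm1 stood at 10.34, 10.52 and 10.00 (log2) in REST KO cells, against 7.26, 9.11 and 8.69 in control cells. The means were 10.28 ± 0.26 in REST KO cells and 8.35 ± 0.97 in control cells (SD, n = 3 each). The log2 fold change was 1.93 ± 0.44 (SE), or 3.81-fold with a 95% interval from 1.87 to 7.78, and limma's adjusted p = 0.0798. Only 25 of the 11388 tested probes (0.22%), this one included, had a fold change that high. The lowest REST KO array lay 0.88 above the highest control array. Such a separation, with REST KO higher, was found in 12.1% of tested probes, and in either direction in 25.1%. An exact permutation test of the 6 arrays gave p = 0.1 (two-sided), the smallest that 3 against 3 allow.

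Whether Insm1 passed the threshold depended on the background correction and on the weight of single arrays. With quantile normalization and no background correction it was 1.64 ± 0.32 (limma's adjusted p = 0.0375), where 2.92% of tested probes passed. In the authors' deposited table Insm1 had a log2 fold change of 1.64 with an adjusted p of 0.0240. Without control replicate 2 it rose by 2.31 ± 0.39 (limma's adjusted p = 0.0185), in a fit where 14.5% of tested probes passed. Without control replicate 1, the array in which Insm1 was dimmest, the difference was 1.38 ± 0.20, with limma's adjusted p = 0.0807. In that fit 0 of the 11388 tested probes passed, and limma's unadjusted p of Insm1 was 0.000390, against 0.00288 with all arrays.

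**Figure D2:**
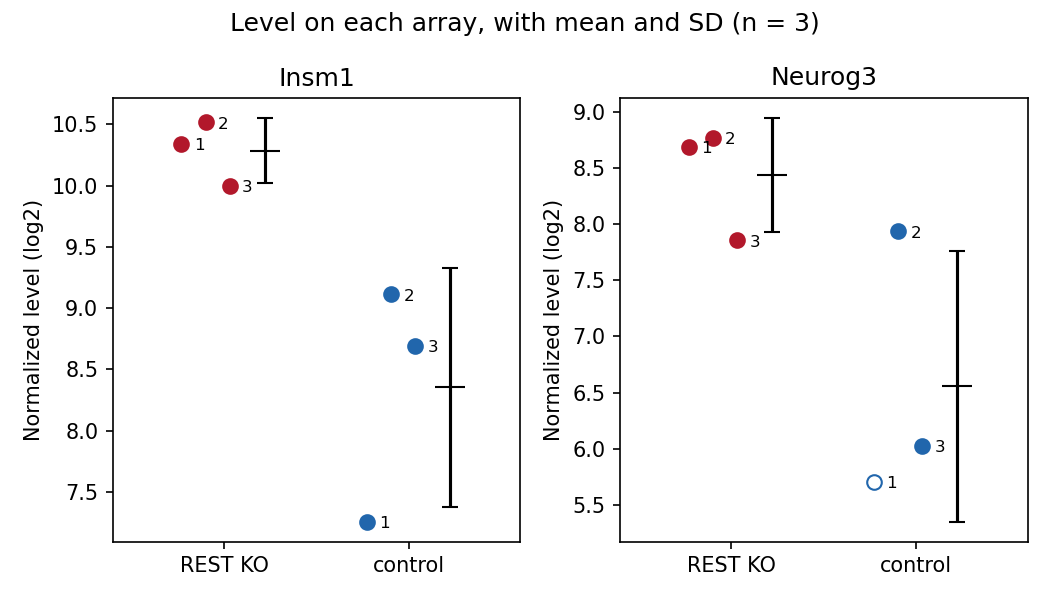
Normalized level (log2) of Insm1 and Neurog3 on each array, numbered by replicate, with REST KO at left and control at right and black bars for the mean and SD (n = 3). Open points mark arrays that did not detect the probe. The REST KO arrays of Insm1 lie above all its controls, whereas control replicate 2 of Neurog3 (7.93) lies just above REST KO replicate 3 (7.85).

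The 3 neurogenins, close relatives within the bHLH family, differed in whether they could be detected at all. Neurog3, on chromosome 10, was detected in both genotypes, whereas Neurog1, on chromosome 13, and Neurog2, on chromosome 3, were at background. Their promoters are shown side by side because the 3 genes are the closest relatives among the 9. Each sequence is the 250 bases before the annotated start in RefSeq (GRCm38.p6), read on the strand of the gene, with E boxes (CANNTG, either strand) in capitals. The windows are chr10:62132840-62133089 on the plus strand for Neurog3, chr13:56252181-56252430 on the minus strand for Neurog1 and chr3:127632886-127633135 on the plus strand for Neurog2.
Neurog3: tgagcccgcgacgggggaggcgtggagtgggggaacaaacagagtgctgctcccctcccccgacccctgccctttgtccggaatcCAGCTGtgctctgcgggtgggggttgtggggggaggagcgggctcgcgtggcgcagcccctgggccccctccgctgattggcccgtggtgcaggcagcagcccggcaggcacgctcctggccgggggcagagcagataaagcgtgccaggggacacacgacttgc
Neurog1: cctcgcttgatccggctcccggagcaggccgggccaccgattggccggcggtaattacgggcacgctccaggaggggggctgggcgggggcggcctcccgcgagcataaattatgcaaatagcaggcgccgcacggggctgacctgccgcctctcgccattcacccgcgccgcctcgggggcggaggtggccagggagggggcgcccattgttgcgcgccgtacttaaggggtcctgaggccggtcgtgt
Neurog2: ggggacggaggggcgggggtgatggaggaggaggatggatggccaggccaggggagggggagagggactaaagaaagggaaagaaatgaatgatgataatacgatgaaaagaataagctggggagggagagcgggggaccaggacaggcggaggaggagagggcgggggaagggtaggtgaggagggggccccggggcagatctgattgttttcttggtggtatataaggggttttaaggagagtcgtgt

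The Neurog3 window held 1 E box, from 165 to 160 bases before the start, and those of Neurog1 and Neurog2 held none. Of all 32851 promoters of this length 66.2% held at least 1 E box. The RefSeq promoter table matched 8 of the 9 genes, with 15 promoters in all, and has no entry for Insm1. Both conserved parts of the RE1 element were also searched on either strand. TTCAGCACC was in none of the 15 windows (0.301% of all promoters), and GGACAGC was in 1, a promoter of Myt1l (5.28% of all promoters). A missing match says only that these letters are not in this window.

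Neurog3 gave raw intensities of 486.8, 510.4 and 329.9 in REST KO replicates 1 to 3, against 144.3, 307.6 and 154.8 in control replicates 1 to 3. Control replicate 1 did not reach the detection score of 0.95 (it scored 0.945), and control replicate 3 did so narrowly (0.967). Control replicate 2 stood apart from both and near REST KO replicate 3. The raw difference between those arrays was 22.3, against a bead error of 19.0.

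The normalized levels were 8.69, 8.77 and 7.85 (log2) in REST KO cells, against 5.71, 7.93 and 6.03 in control cells. Here the groups overlapped, with control replicate 2 above REST KO replicate 3 by 0.08. The raw intensities did not overlap, but the share of all probes separated in raw intensity was not computed. Means were 8.44 ± 0.51 in REST KO cells and 6.55 ± 1.20 in control cells (SD, n = 3 each). The log2 fold change of 1.88 ± 0.57 (SE), or 3.68-fold with a 95% interval from 1.47 to 9.22, had limma's adjusted p = 0.134. Since 1 control array is at background, that difference averages in a background value. Only 28 tested probes (0.246%) had a fold change as high or higher, Neurog3 included. An exact permutation test gave p = 0.2 (two-sided, with 0.1 as the smallest possible).

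Among the single arrays left out in turn, control replicate 2 moved the Neurog3 difference most. Without that array Neurog3 rose by 2.58 ± 0.28 on the log2 scale (limma's adjusted p = 0.00915), in the fit where 14.5% of tested probes passed, 7.16% as higher in REST KO cells. With weights estimated per array, a fit in which 12.2% of tested probes passed, Neurog3 rose by 2.38 ± 0.38 (limma's adjusted p = 0.0175) and Insm1 by 2.12 ± 0.38 (0.0227). Without background correction the Neurog3 difference shrank to 1.20 ± 0.33 (limma's adjusted p = 0.0930), and the authors' deposited table gives 1.20 with an adjusted p of 0.0871. Control replicate 2 was also the control with the lowest summed ES cell markers. That sum was 26825, inside the REST KO range, and its part in the Neurog3 value was not tested. The markers did not move together. Among controls Esrrb, Zfp42, Nanog, Klf4 and Sox2 were lowest in replicate 2, but Pou5f1, Tdgf1 and Utf1 were not. Utf1 was highest there (11.63 on the log2 scale).

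**Figure D3:**
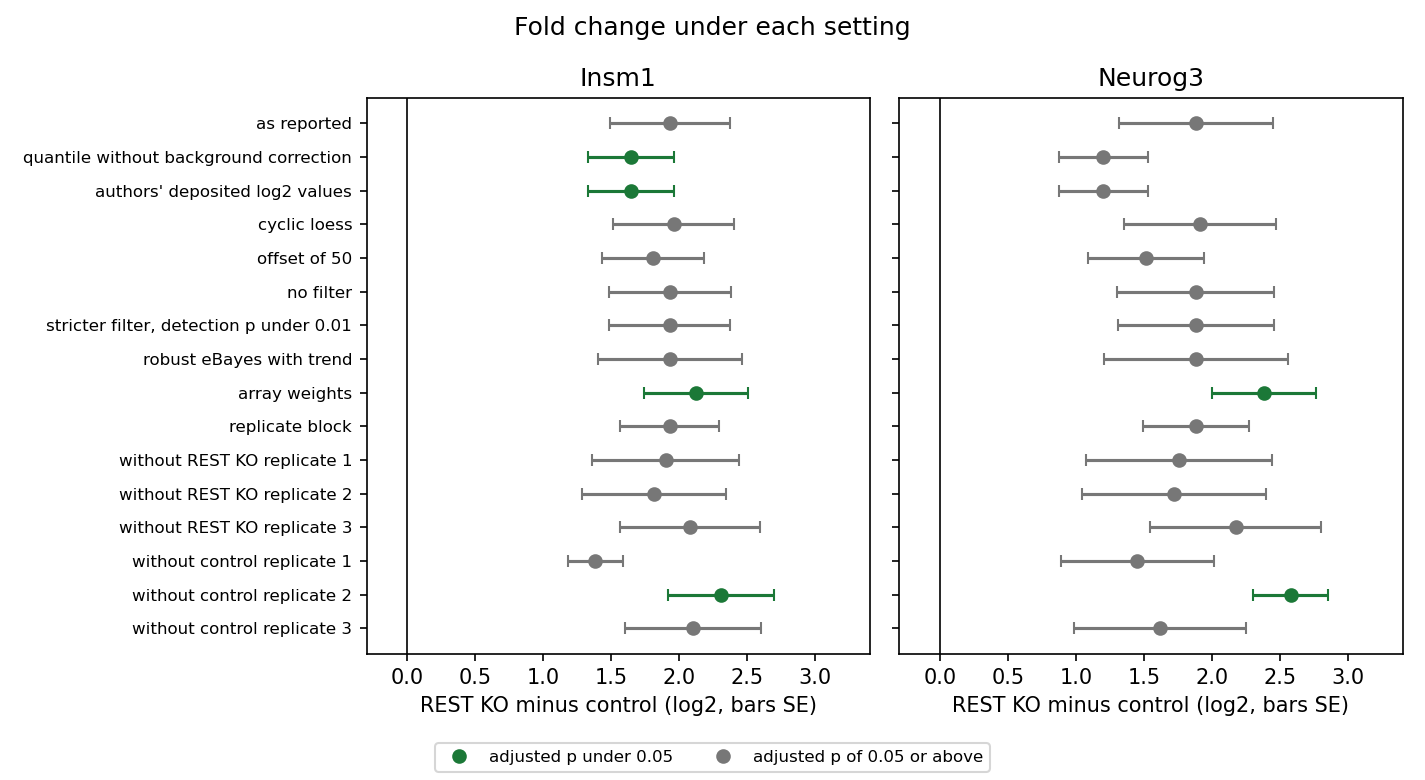
Log2 fold change (REST KO minus control, bars SE) of Insm1 and Neurog3 under the reported setting and 15 alternatives, with green points where limma's adjusted p was under 0.05. All points lie above 0, Insm1 from 1.38 to 2.31 and Neurog3 from 1.20 to 2.58, and 4 of the Insm1 points and 2 of the Neurog3 points are green. The points without background correction and on the authors' deposited log2 values come from the same values to within 5.0e-09.

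The other neurogenins and NEUROD1 stayed at background. Neurog1 had raw intensities of 108.5, 98.8 and 119 in REST KO cells, against 111.1, 101 and 96.9 in control cells. Neurod1, a bHLH factor of neurons and endocrine cells on chromosome 2, had 119.6, 123.8 and 131 in REST KO cells, against 112, 102.9 and 138.7 in control cells, with control replicate 3 closest to detection (score 0.945). Both genes had overlapping arrays.

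Neurog2, which drives cortical neurogenesis, was read by 2 probes that did not behave alike, although both are background. One had 102.3, 96.8 and 107.8 in REST KO cells and 116.9, 100.1 and 101 in control cells, which overlap. The other had 74.8, 88.2 and 100.1 in REST KO cells and 118.1, 104.8 and 107.9 in control cells, which do not overlap. Its normalized levels did not overlap either (at most 5.08 in REST KO cells, at least 5.18 in control cells). That held, in either direction, for 25.1% of tested probes, a set that leaves this probe out. No such share was computed for raw intensities or undetected probes. No array detected this Neurog2 probe, so no fold is given. With all probes tested it had an unadjusted p = 0.0168 and an adjusted p = 0.233 by limma. In that fit 3467 of 25697 probes had an unadjusted p under 0.05.

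The related zinc-finger genes Myt1 and Myt1l encode factors that accompany neuronal differentiation, MYT1L being known for repressing non-neuronal programmes. Myt1, on chromosome 2, had 132.5, 143.7 and 145.5 in REST KO cells, against 141.8, 120.8 and 129.4 in control cells. REST KO replicate 3 was the only array to detect it (score 0.961). Its raw intensities overlapped between genotypes, while the normalized levels were apart by 0.04 on the log2 scale. Of tested probes 12.1% were likewise apart with REST KO higher. With all probes tested Myt1 had an unadjusted p = 0.0232 and an adjusted p = 0.266 by limma, in the fit where 3467 of 25697 probes were under 0.05 unadjusted. The 3 Myt1l probes, on chromosome 12, ranged from 84.9 to 129.6 over all arrays, and each overlapped between genotypes.

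Pax6, a paired-box regulator of eye, forebrain and pancreas on chromosome 2, had 88.3, 100.9 and 108.7 in REST KO cells and 100, 100.3 and 105.1 in control cells. Npas4, a bHLH-PAS factor that neurons switch on with activity and that lies on chromosome 19, ranged from 87.5 to 113.4 over its 2 probes. These values overlap between genotypes and show neither gene above background. At this sensitivity a low level of these transcripts in either genotype could not have been seen.

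Other genes around these factors were taken from 7 lists drawn up with earlier results of these data known, 87 genes in all. Of these 84 are on the array and 30 passed the filter. By the brightest probe of each gene 5 of the 30 rose in REST KO cells and none fell. The fold change was positive in 23 of them, with 0.19 as the median on the log2 scale. Among all 8636 tested genes 1.11% rose and 0.255% fell, the fold change was positive in 4123, and the median was -0.01. Genes detected in 1 genotype only can pass the filter, and these lists were not tested as sets.

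bHLH proteins outside the list of 9 were largely at background as well. Of 16 proneural and neuronal bHLH genes 11 were detected on no array, and only Ferd3l, which helps to form the floor plate, passed the filter (log2 fold change 0.16 ± 0.11, limma's adjusted p = 0.471). Neurod2 and Olig1 were each detected on a single control array and Olig3 on 2 REST KO arrays. Of the 5 zinc-finger relatives of Insm1 and Myt1 on the array none was tested, and 4 were detected nowhere.

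The partners and inhibitors of bHLH factors were detected more widely. Of 5 tested genes 2 rose and none fell, with a median of 0.82. Those that rose were Id1 (2.00 ± 0.21, limma's adjusted p = 0.0239) and Id2 (1.49 ± 0.21, 0.0320), whose products bind E proteins and keep them from pairing with proneural factors. The remaining 3 tested genes of this list, named after their values were seen, did not pass. Id3 had a log2 fold change of 0.82 ± 0.24 (limma's adjusted p = 0.127), the E protein genes Tcf4 and Tcf12 had 0.08 and 0.16, and the E2A gene Tcf3 was not matched to a probe.

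Among 5 tested targets of proneural and NEUROD factors 1 rose and none fell, with a median of 0.54. Hes6, which encodes a bHLH antagonist of HES1 and promotes neurogenesis, stood at 10.06, 10.25 and 9.93 (log2) in REST KO cells, against 8.45, 8.86 and 9.09 in control cells. By this probe, the brightest of 3 tested, Hes6 rose by 1.28 ± 0.18 (limma's adjusted p = 0.0310). Its arrays did not overlap, as held with REST KO higher for 12.1% of tested probes. Gadd45g is a growth arrest and DNA damage gene with 2 tested probes. By the brightest it had 11.62, 11.35 and 11.30 in REST KO cells, against 8.86, 11.21 and 9.87 in control cells (1.44 ± 0.52, limma's adjusted p = 0.188). The other probes of Hes6 and Gadd45g are not shown. The Notch ligand gene Dll1, named after its values were seen, had 7.75, 7.72 and 7.28 in REST KO cells, against 6.86, 7.69 and 6.58 in control cells. In Gadd45g and Dll1, as in Neurog3, control replicate 2 was the highest control and lay next to or among the REST KO arrays. The other tested targets differed. Hes6 and Rnd2 were highest in control replicate 3 (9.09 and 6.96), and Mfng was lowest in control replicate 2 (6.09). How common the pattern is among all tested probes was not counted.

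Of 5 tested endocrine and neuroendocrine factors 1 rose and none fell, with a median of 0.17. Gata3, a zinc-finger factor of sympathetic neurons and trophoblast, rose by 0.91 ± 0.11 (limma's adjusted p = 0.0239), and Gata2 had 0.35 ± 0.34 (0.610). Of the 17 genes of that list 11 were detected on no array. No gene passed among 5 tested neural PAX, homeobox and POU factors, whose median was 0.22. The TALE homeobox gene Meis2 had the largest difference there (1.52 ± 0.28, limma's adjusted p = 0.0523). It stood at 10.99, 11.07 and 10.51 in REST KO cells and 8.76, 9.80 and 9.46 in control cells. These do not overlap, as held with REST KO higher for 12.1% of tested probes. The LIM homeobox gene Isl1 had -0.46 ± 0.15 (0.155).

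Of 9 tested partners and targets of Npas4 and other activity-regulated genes 1 rose and none fell, with a median of 0.14. Bdnf, a growth factor gene that NPAS4 activates in neurons, rose by 1.79 ± 0.20 (limma's adjusted p = 0.0239, detected on 2 control arrays), while the synaptic gene Arc had -0.69 ± 0.17 (0.0917). Npas4 itself stayed undetected in both genotypes. The 5 genes that rose in these lists also passed without control replicate 2 or 3, but none of them did when control replicate 1 or a single REST KO array was left out. In each of those 4 fits limma called 0 of the 11388 tested probes, with 1449 to 2086 at an unadjusted p under 0.05.

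**Figure D4:**
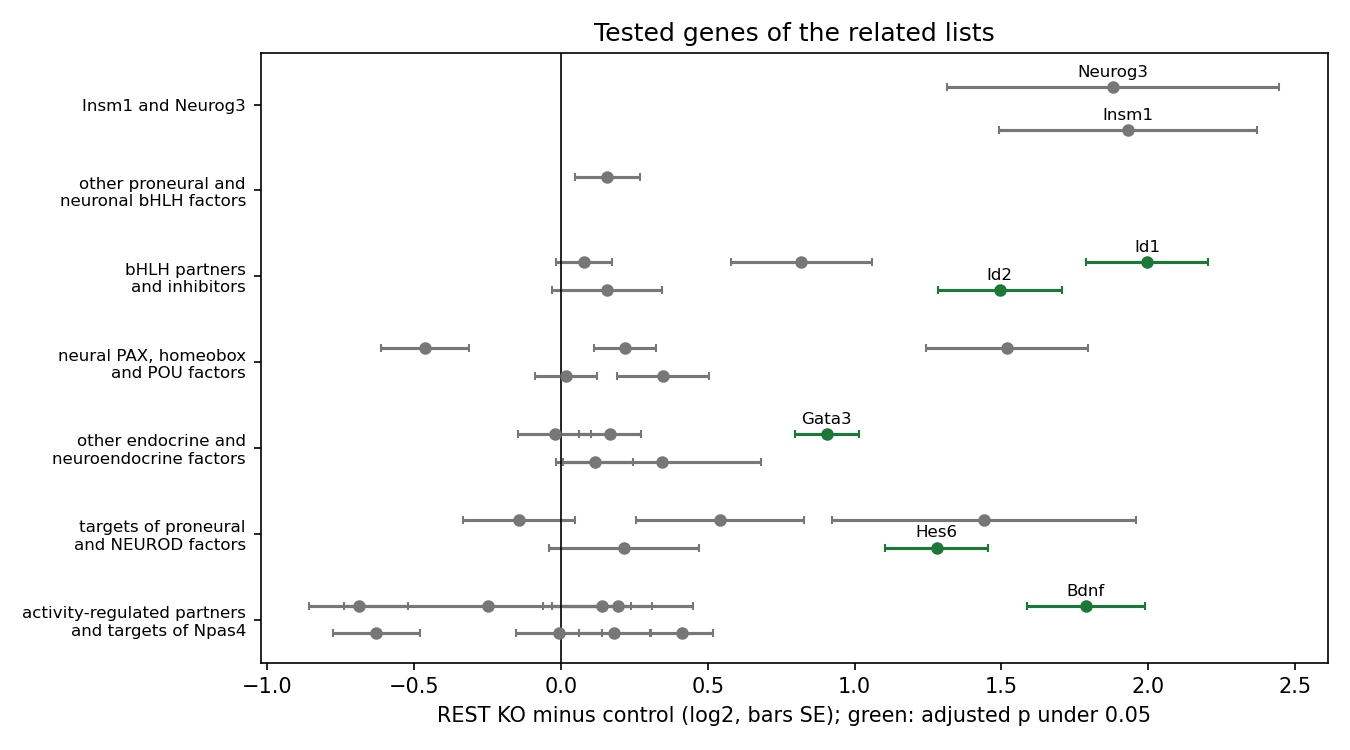
Log2 fold change (REST KO minus control, bars SE) of Insm1, Neurog3 and the tested genes of the related lists, each by its brightest probe, with genes past limma's adjusted p of 0.05 in green and named. Insm1 (1.93) and Neurog3 (1.88) lie between Bdnf (1.79) and Id1 (2.00) in size, with wider errors than either.

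The probes whose levels followed each factor most closely over the 6 arrays were found by Pearson's r among all tested probes. For Insm1 these were Casp8, which encodes an apoptotic caspase (r = 0.999), the matricellular gene Ccn4 (0.998) and the hyaluronidase gene Cemip2 (0.996). Their log2 fold changes were 0.44 ± 0.13, 1.15 ± 0.28 and 0.61 ± 0.16. For Neurog3 they were the transferrin receptor gene Tfrc (0.998), the kinase gene Lrrk2 (0.998) and Pou3f1, which encodes a POU factor of epiblast and neural cells (0.997), with log2 fold changes of 0.45 ± 0.15, 1.77 ± 0.52 and 1.80 ± 0.51. None of the 6 passed an adjusted p of 0.05. These likenesses are descriptions over 6 arrays that share a genotype contrast: 549 other tested probes (4.82%) reached 0.9 with Insm1, and 758 (6.66%) with Neurog3.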

How the data were processed

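Intensities (mean over beads per probe) and counts of beads were deposited by the authors from BeadStudio 3.3.7 without normalization, per the file headers. The deposited detection score is headed as a p-value, yet bright probes score 1. It was therefore subtracted from 1 to give the detection p. The authors' deposited log2 values differed from quantile normalized log2 intensities by at most 5.0e-09. The p-value columns of the authors' deposited table come from limma, per the labels. Its model options and genome build are not stated there.

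Here intensities were background corrected with a normal-exponential model informed by the detection p, with an offset of 16, and then quantile normalized and put on the log2 scale (neqc of limma 3.58.1 in R 4.3.3). Fold changes of dim probes are shrunk by the offset. Probes with detection p under 0.05 on at least 3 of 6 arrays were fitted with lmFit and eBayes on genotype, two-sided, with Benjamini-Hochberg adjustment over 11388 probes. Old symbols were updated through RefSeq (GRCm38.p6), and a gene's brightest tested probe stands for it. The text names all probes of the 9 genes, list genes that passed or had the 2 largest differences, and for each tested factor the 3 most similar probes. Any other list gene it names was chosen after its values were seen. These genes and lists were chosen with earlier results of these data known. In simulated data for REST KO against control (11388 probes) the fit found 74% of probes given a log2 change of 1 and 95% of those given 2. It called 7 unchanged probes. The simulation drew every probe independently, with no shift shared across an array, so it does not show the power reached in the real data. Precision is limited by having 3 arrays per genotype. Replicates differed by at least 2.32 times the bead error, so none were merged. Control replicate 2 differed most, by 13.6 times from control replicate 1 and 13.2 times from control replicate 3. All other pairs differed by at most 4.13 times.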

Additional observations from a re-analysis of the deposited data

How the results depend on the processing

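Insm1 and Neurog3 kept a fold change above 0 in all 15 alternatives. Insm1 passed in 4 of them and Neurog3 in 2, with adjusted p from 0.0185 to 0.271 and from 0.00915 to 0.364. The fits without background correction and on the authors' deposited log2 values count as 2 of these alternatives but hold the same values to within 5.0e-09, and Insm1 passed in both. The number of the 9 genes that passed was 0 as reported, 1 without background correction and with the authors' deposited log2 values, 2 with array weights, and 0 to 2 with 1 array left out. Probes that passed numbered 145 as reported, 332 without background correction and with the authors' deposited log2 values, 274 with an offset of 50, 50 with no filter, 364 with robust eBayes and a trend, and 1386 with array weights. With 1 array left out the count ran from 0 (limma, 1449 to 2086 probes with an unadjusted p under 0.05) to 1647. Among the 7 related lists 5 genes passed as reported and 3 with no filter, where 25697 probes were tested. With array weights 12 passed (9 higher, 3 lower), and with 1 array left out 0 to 10. The cause of these shifts was not tested.

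With the replicate block, 0 probes, 0 of the 9 genes and 0 list genes passed by limma (2376 probes had an unadjusted p under 0.05), with Insm1 at 1.93 (adjusted p = 0.0986) and Neurog3 at 1.88 (0.105). Deviations of same-numbered arrays correlated at -0.27, 0.34 and 0.36, so the numbers are not taken to pair the samples. Transcripts below the detection limit of the array are not measured in either genotype.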
